A study of Sus scrofa with 12 samples.

Results

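The 6 genes described here encode sugar transporters of the intestine, measured in the ileal mucosa of 12 pigs: SLC5A1, SLC5A4, SLC2A1, SLC2A2, SLC2A3 and SLC2A5. They were found by their gene symbol in the annotation of the array, which gives them 17 of the 33405 probe sets kept for testing, on 6 of 12195 genes with a probe set kept. A probe set is a group of probes read as 1 value, and each gene was represented by the one with the highest mean over the 12 arrays. All 17 passed the filter on dim probe sets.

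The series compared pigs of high and low feed efficiency, that is, of better and poorer conversion of feed into growth. Mucosa of the ileum was taken from 6 pigs of each group, 3 males and 3 females, all 140 days old, and each array held the RNA of a single pig. The pigs are called H1 to H6 (high) and L1 to L6 (low), numbers 1 to 3 being males and 4 to 6 females. No genotype, diet or other agent is named by the labels, which say only that the animals differed in feed efficiency traits. Values are on the log2 scale, so a difference of 1 is a doubling. Values of different probe sets are not compared with each other, since probes differ in brightness.

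Sugar uptake in the small intestine runs through carriers on both faces of the enterocyte, the absorptive cell of the villus. SLC5A1 (SGLT1) draws glucose and galactose in from the gut lumen together with sodium, SLC2A5 (GLUT5) lets fructose in by the same face, and SLC2A2 (GLUT2) lets these sugars out towards the blood. SLC2A1 (GLUT1) and SLC2A3 (GLUT3) carry glucose into the cells of many tissues for their own use, and SLC5A4 is a paralog of SLC5A1 that in humans acts as a glucose sensor and in pigs carries glucose with low affinity. SLC5A1 and SLC5A4 lie next to each other in the pig assembly Sscrofa11.1. The names of their brightest probe sets carry the mark that the maker uses for probes matching more than 1 transcript, and whether the SLC5A1 and SLC5A4 probe sets read each other's transcripts was not tested. The brightest probe set of SLC2A5, which lies next to SLC2A7, carries the same mark. Whether it reads other transcripts was not tested either.

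FABP6, the ileal bile acid binding protein, read 11.70 to 13.09 over the 12 pigs, and the ileal bile acid transporter SLC10A2 read 8.40 to 11.99. The series holds no other tissue, so these levels cannot test the tissue label. Pig H1 was least like the rest: its array correlated with the others at a median of 0.899, and each of the other 11 at 0.930 to 0.962. Enterocyte markers were low on that array as well. A marker score, the mean over 8 measured enterocyte genes of each value minus its mean over 12 arrays, was -1.95 in this pig and between -0.52 and 0.85 in the other 11. The 8 genes were VIL1, FABP2, ANPEP, CDH17, KRT20, EPCAM, CDH1 and APOA4. Pig H1 read lowest in each but APOA4, where it read 6.47, pig H2 5.77 and pig L2 6.01. The score averaged -0.27 ± 0.91 over the high group and 0.27 ± 0.41 over the low group (SD, n = 6), and all 8 markers had a lower mean in high feed efficiency (median difference -0.52, 6 of 8 and -0.16 without that pig). The lowest reading of any marker in any pig was 4.87, for FABP2 in pig H1. APOA4 alone of the 8 had an unadjusted p under 0.05 in limma, against 2.18% of all genes. In a bulk tissue, fewer enterocytes and less RNA per enterocyte cannot be told apart. Pig H1 also scored lowest for markers of plasma cells (-0.87) and smooth muscle (-0.49). It did not for those of B cells, T cells, macrophages, endothelium, fibroblasts, red blood cells or cycling crypt cells. RNA quality and the sampling of the tissue were not tested. Values without pig H1 are given beside the results that it moved most.

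SLC5A1, the sodium-driven glucose carrier, ran from 8.74 to 12.02 with a median of 11.20 in high feed efficiency. In low feed efficiency its lowest value was 11.02, its median 11.55 and its highest 12.20. The groups overlapped, and pig H1 lay far below all others, at -2.77 from the median of the other 11, which is 6.83-fold lower. High minus low came to -0.54 ± 0.47 (log2 units, SE, n = 6 per group, 95% interval -1.56 to 0.48), which limma did not call (adjusted p = 0.999). It was -0.09 when pig H1 was left out, and -0.81 when pig H3 was. A pair of further bright probe sets gave -0.49 ± 0.42 and -0.52 ± 0.47 and followed the first across pigs (r = 0.991 and 0.986). The fourth, SNOWBALL_024224_st, was dim (mean 4.87) and followed it less (r = 0.493).

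SLC2A2, the exit carrier of the enterocyte, had the widest spread of the 6 genes. It ran from 3.75 to 7.82 with a median of 5.52 in high feed efficiency and from 5.23 to 6.93 with a median of 6.45 in low. The lowest and the highest value were both in males of the high feed efficiency group, pigs H1 and H3, so that the low group lay inside the range of the high group. Over all 12 pigs this range was 16.8-fold, and 6.04-fold without pig H1. The difference of -0.49 ± 0.59 (SE, n = 6 per group, 95% interval -1.77 to 0.79) was not called by limma (adjusted p = 0.999), and it was -0.02 without pig H1. The other probe set of SLC2A2 gave -0.70 ± 0.60 and followed the first closely (r = 0.972).

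SLC2A5, the fructose carrier, ran from 4.47 to 7.48 with a median of 6.59 in high feed efficiency, and from 6.17 to 7.30 with a median of 6.45 in low. The groups overlapped, and again only pig H1 lay below 6. High minus low was -0.20 ± 0.41 (SE, n = 6 per group, limma adjusted p = 0.999), and 0.17 without that pig, so that its sign rested on 1 animal. Its other probe set gave 0.00 ± 0.21 and followed the first at r = 0.809, or 0.624 without pig H1.

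SLC5A4 ran from 3.97 to 6.72 with a median of 5.18 in high feed efficiency and from 4.62 to 6.01 with a median of 5.05 in low. Its lowest pig was pig H1, and its 2 highest were females H4 and L4. The difference was 0.05 ± 0.38 (SE, n = 6 per group, limma adjusted p = 0.999), with -0.23 without pig H4 and 0.28 without pig H1. Its other probe set, whose name lacks the mark for more than 1 transcript, gave 0.25 ± 0.41. That one followed the first at r = 0.704, or 0.669 without pig H1.

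The remaining genes, SLC2A1 and SLC2A3, varied less. SLC2A1 ran from 6.48 to 7.31 with a median of 6.59 in high feed efficiency and from 6.36 to 7.51 with a median of 6.71 in low. SLC2A3 ran from 8.46 to 9.29 with a median of 8.64 in high and from 8.47 to 9.17 with a median of 8.72 in low feed efficiency. In both genes each group covered nearly the same range. The differences were -0.01 ± 0.17 for SLC2A1 (95% interval -0.37 to 0.36) and 0.00 ± 0.17 for SLC2A3 (-0.36 to 0.37, SE, n = 6 per group, limma adjusted p of at least 0.999). On this brightest probe set of SLC2A3, pig H1 was not the lowest of the 12 pigs but the highest. On none of the gene's other probe sets was it the highest. On SNOWBALL_027273_st it read 6.54, and pig L1 read 7.07. That probe set followed the first at r = 0.710, or 0.943 without pig H1. The 4 other probe sets of SLC2A3 gave differences from -0.11 to 0.25, and their correlation with the first ran from 0.142 to 0.710.

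**Figure D1:**
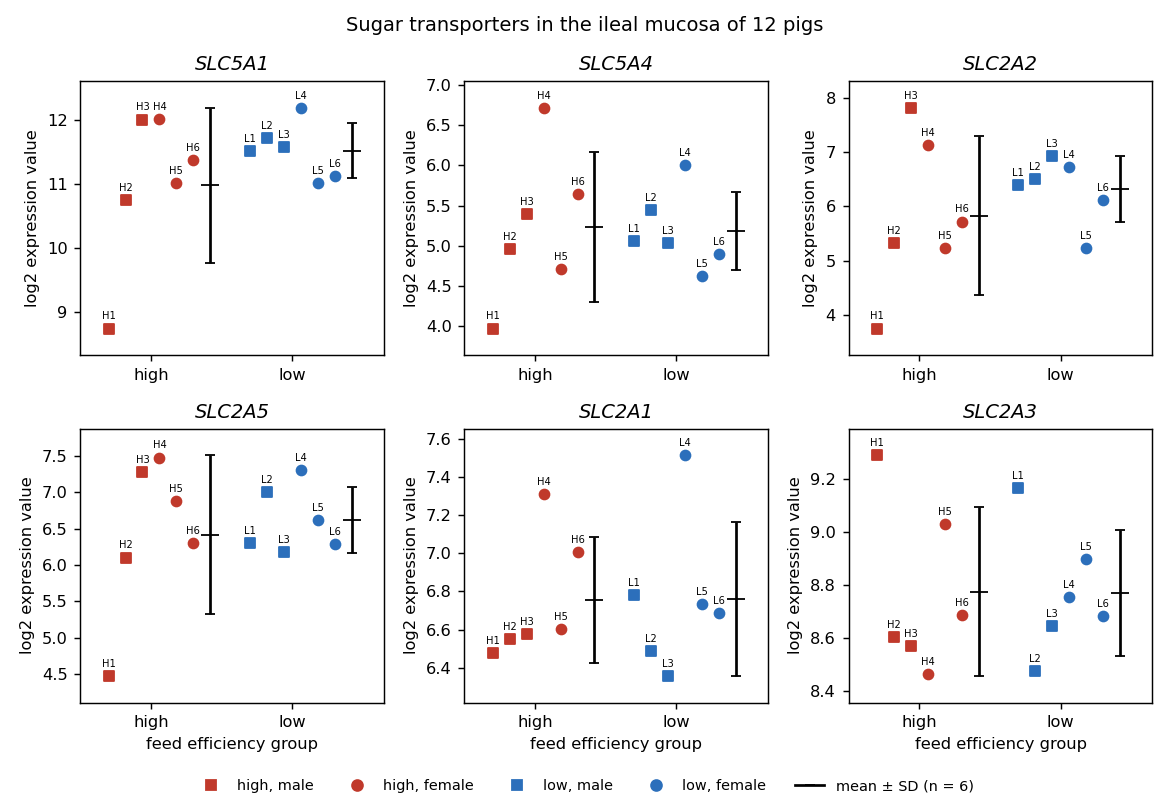
Log2 expression value (y axis) of each transporter's brightest probe set in every pig of the high and low feed efficiency group (x axis), males as squares and females as circles, with the mean ± SD of 6 pigs beside them. H1 is lowest for SLC5A1 (8.74), SLC5A4 (3.97), SLC2A2 (3.75) and SLC2A5 (4.47) and highest for SLC2A3 (9.29), and the 2 groups overlap in all 6 genes.

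Across the 6 genes, 2 had a higher and 4 a lower mean in high feed efficiency, with a median difference of -0.10. Over all 12195 genes, 5796 were higher and 6399 lower, with a median of -0.01. None of the 17 probe sets was called between the feed efficiency groups by limma, where 0 of 33405 were called at an adjusted p under 0.05 (0%). At an unadjusted p under 0.05 the count was 0 of 17, against 3.17% of all probe sets. In none of the 17 did the groups fail to overlap, which happened in 0.0928% of all probe sets. Without pig H1 the 6 genes had 3 higher and 3 lower means and a median of 0.00.

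The intervals show what the 12 arrays could resolve. For SLC2A1 and SLC2A3 the 95% intervals stayed within 0.37 to either side of 0, about the scale of a typical probe set, whose median SE was 0.17. For SLC5A1, SLC2A2, SLC5A4 and SLC2A5 they reached 0.70 or more in at least 1 direction, so that differences of that size could not have been resolved.

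**Figure D2:**
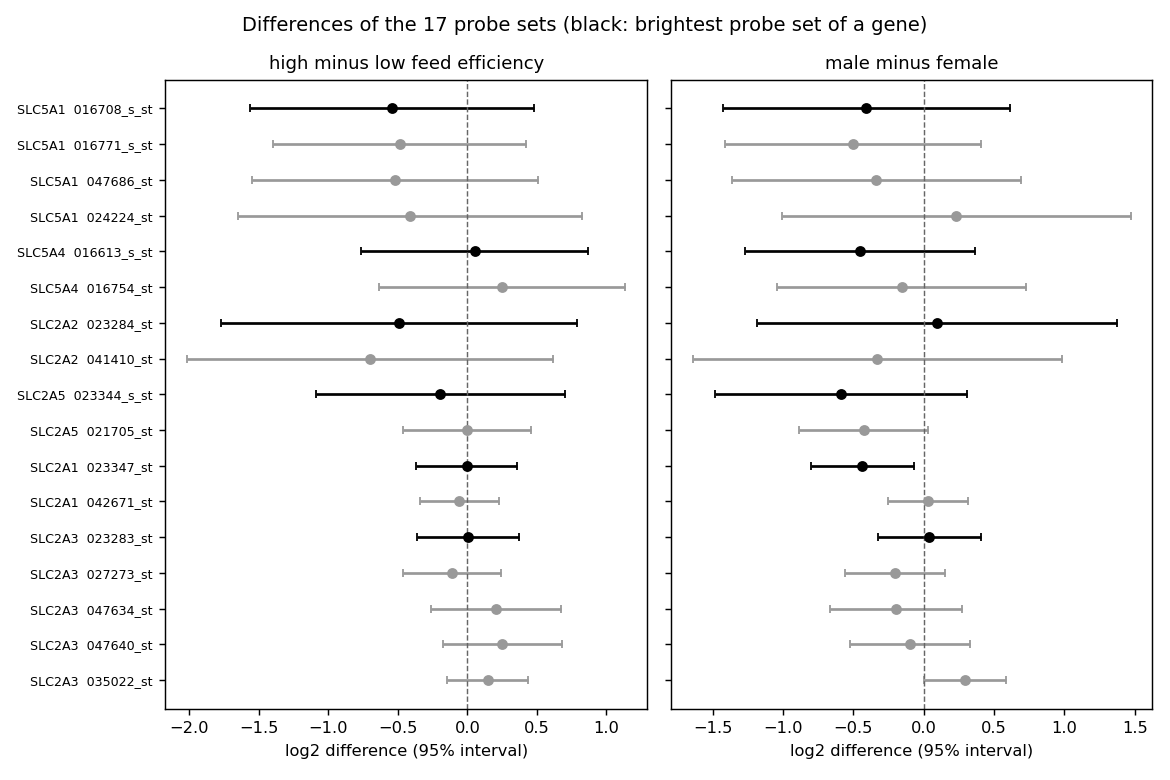
Log2 difference with its 95% interval (x axis) for each of the 17 probe sets (y axis), between high and low feed efficiency on the left and between males and females on the right. Black marks the brightest probe set of a gene and grey the others. Every interval on the left crosses 0, and on the right those of SLC2A1 (-0.80 to -0.07) and of a dim SLC2A3 probe set do not.

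The spread between pigs set the genes apart from each other in a way the groups did not. Over 12 pigs the SD was 1.09 for SLC2A2, 0.91 for SLC5A1, 0.80 for SLC2A5 and 0.71 for SLC5A4, against a median of 0.32 over all probe sets kept. Among probe sets within 0.5 of the same mean level, 99.2% had a smaller SD than SLC2A2, 97.3% than SLC2A5, 95.9% than SLC5A1 and 92.8% than SLC5A4. These are the brightest probe sets. The other SLC2A5 probe set had an SD of 0.42, with 72.0% smaller at its level. SLC2A1 (SD 0.35, 57.8% smaller) and SLC2A3 (SD 0.27, 30.1% smaller) lay in the middle of theirs. Without pig H1 the SD was 0.85 for SLC2A2, 0.62 for SLC5A4, 0.51 for SLC2A5 and 0.47 for SLC5A1. Of all probe sets, at any level, 96.7% then varied less than SLC2A2, 90.6% less than SLC5A4, 83.3% less than SLC2A5 and 80.3% less than SLC5A1. Over 12 pigs the same shares of all probe sets were 98.4%, 91.7%, 94.5% and 96.7%.

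**Figure D3:**
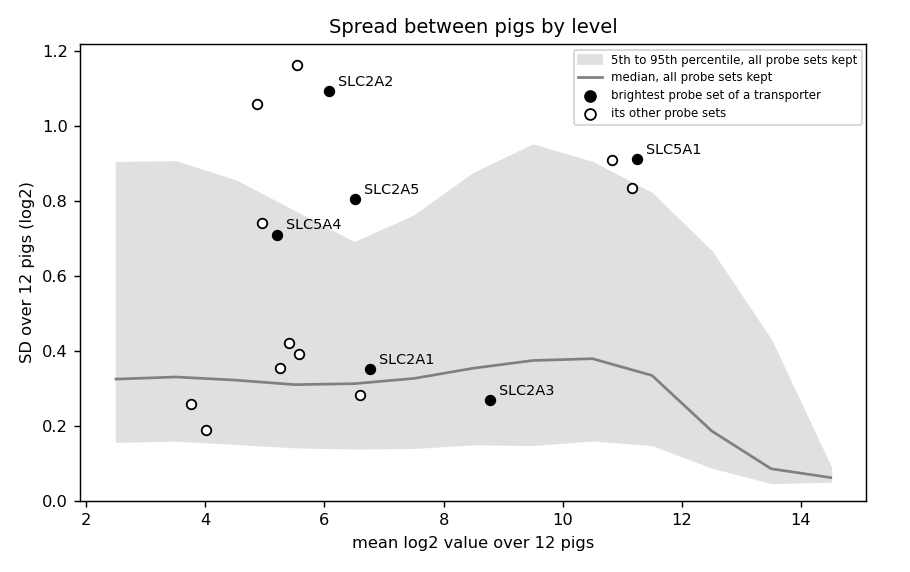
SD over 12 pigs (y axis, log2) against the mean log2 value (x axis) for the 17 transporter probe sets, with the median and the 5th to 95th percentile of all probe sets kept as a grey line and band. Of the brightest probe sets, SLC2A2 (1.09), SLC2A5 (0.80) and SLC5A1 (0.91) lie above the band, SLC5A4 (0.71) near its upper edge, and SLC2A1 (0.35) and SLC2A3 (0.27) close to the line.

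The second comparison set males against females. SLC2A1 had the smallest p of the 6 genes, with males between 6.36 and 6.78 (median 6.52) and females between 6.60 and 7.51 (median 6.87). The sexes overlapped. Male minus female was -0.44 ± 0.17 (log2 units, SE, n = 6 per sex, limma adjusted p = 0.192), which did not pass the threshold, while its unadjusted p was under 0.05. So was that of a dim SLC2A3 probe set, SNOWBALL_035022_st, at 0.29 ± 0.13. These are 2 of 17 probe sets, against 19.0% of all probe sets at an unadjusted p under 0.05 in this comparison. The dimmer probe set of SLC2A1, at a mean of 4.01, gave 0.03 ± 0.13 and followed the brighter one weakly across pigs (r = 0.246).

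The labels number the pigs in 2 ranges, 301 to 310 with 8 pigs and 317 to 324 with 4, and the second range holds females alone. The 2 females of the first range, pigs H4 and L4, had the highest SLC2A1 values of all, 7.31 and 7.51. The 4 females of the second range lay between 6.60 and 7.01, and the mean of the 6 males was 6.54. With the identifier range as a term, which takes the sex difference from the first range, male minus female was -0.87 for SLC2A1 (limma adjusted p = 0.0725). The same 2 females gave means of 12.11 for SLC5A1, 6.36 for SLC5A4 and 7.39 for SLC2A5, above the means of the second range's females (11.13, 4.97 and 6.52). What the ranges stand for is not given by the labels, and their part in these values was not tested.

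For the other genes male minus female was -0.41 ± 0.47 for SLC5A1, -0.45 ± 0.38 for SLC5A4, -0.59 ± 0.41 for SLC2A5, 0.09 ± 0.59 for SLC2A2 and 0.04 ± 0.17 for SLC2A3 (SE, n = 6 per sex). None was called by limma, with adjusted p from 0.469 to 0.953, and 11 of 33405 probe sets were called in all (0.0329%). Males and females overlapped in all 17 probe sets, and did not in 2.18% of all probe sets. Without pig H1, a male, the difference was 0.04 for SLC5A1, -0.22 for SLC5A4, -0.22 for SLC2A5, 0.57 for SLC2A2 and -0.07 for SLC2A3. For SLC5A4 it was smallest without pig H4, at -0.17. With the identifier range as a term it was larger than in the fit without one for SLC5A1 (-1.06), SLC5A4 (-1.38, limma adjusted p = 0.104) and SLC2A5 (-1.17), and had the other sign for SLC2A2 (-0.81), and none of these was called.

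Within the first identifier range high minus low was -0.87 for SLC5A1, -0.63 for SLC2A2 and -0.36 for SLC2A5, and within the second it was 0.12, -0.20 and 0.14. Pig H1 belongs to the first range, and without it the values there were -0.16, 0.12 and 0.26, so that SLC2A2 and SLC2A5 had the other sign. Ordered by their means, the 4 groups of 3 pigs ran from low feed efficiency males (11.60) through high females (11.47) and low females (11.45) to high males (10.50) for SLC5A1. Neighbours in this order lay 0.13, 0.02 and 0.95 apart, with an SD within groups of 0.92. High males also came last for SLC2A2 (5.63), SLC2A5 (5.95) and SLC5A4 (4.78), with no gap between neighbours above the SD within groups. This order rested on pig H1. Without it high males (2 pigs) averaged 11.38 for SLC5A1, still last but 0.07 below their neighbour, 6.57 for SLC2A2, second of the 4 groups, and 6.69 for SLC2A5, above low males at 6.49. For SLC5A4 they averaged 5.18, level with low females (5.18) and low males (5.19). For SLC2A1 both female groups (6.98 and 6.97) stood above both male groups (6.54 and 6.54), the gap between them being 0.43 and the SD within groups 0.31. For SLC2A3 the 4 means lay between 8.73 and 8.82.

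The difference between high and low feed efficiency was itself compared between males and females. Among the 6 genes this contrast, males minus females, ran from -1.13 ± 0.92 for SLC5A1 to 0.11 ± 0.35 for SLC2A3 (SE, 3 pigs per group and sex), and limma called none of the 17 probe sets (0% of 33405 called). Single pigs moved it widely. For SLC5A1 it was -1.88 without pig H3 and -0.25 without pig H1, for SLC2A2 (-0.98 over all pigs) -2.07 and -0.04, and for SLC2A5 (-0.69) -1.35 and 0.05. For SLC5A4 (-0.92) it ran from -1.42 without pig H5 to -0.41 without pig H4. The dimmer SLC5A4 probe set, SNOWBALL_016754_st, came nearest, with -1.94 ± 0.62 and rank 139 of 33405 (limma adjusted p = 1.00). It is named here after its values were seen. In females the high feed efficiency pigs read 6.15, 5.48 and 5.26 and the low ones 5.14, 4.13 and 3.96. In males the high pigs read 4.20, 4.06 and 5.26 and the low ones 4.59, 5.91 and 5.17. The female groups did not overlap, as in 6.74% of all probe sets, and the male groups did, as in all but 7.47% of them. It was the only 1 of 17 with an unadjusted p under 0.05 here, against 2.76% of all probe sets. The brighter SLC5A4 probe set gave -0.92 ± 0.74. With 1 probe set per gene, 0 of the 6 genes reached that p, against 1.87% of all genes.

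The enterocyte carriers varied together from pig to pig. Of 21 relations, 15 between pairs of the 6 genes and 6 with the enterocyte score, 15 had an adjusted p under 0.05 by Pearson's r over 12 pigs, and 5 without pig H1. With the mean of each feed efficiency group and sex removed, which keeps pig H1, 15 again did. SLC5A1 and SLC2A2 correlated at r = 0.901 (permutation p = 4.0e-05, adjusted 0.00042) and Spearman's rho = 0.902 (permutation p = 0.00017, adjusted 0.00357). Their r was 0.869 without pig H1, 0.917 without pigs H1 and L4, the farthest from the median of SLC5A1, 0.956 in males and 0.894 in females. It was the 1 relation of 21 that kept an adjusted p under 0.05 without the 2 farthest pigs (adjusted permutation p = 0.00756).

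SLC5A1 and SLC2A5 correlated at r = 0.911 (permutation p = 0.00061, adjusted 0.0032, rho = 0.776, permutation p = 0.00436, adjusted 0.0213). Without pig H1 the r was 0.728, and without the 2 pigs farthest from the median of SLC5A1 it was 0.667, so part of it rested on those pigs. SLC5A1 and its neighbour SLC5A4 correlated at r = 0.793 (permutation p = 0.00297, adjusted 0.0125, rho = 0.867, permutation p = 0.00054, adjusted 0.00567), with 0.764 and 0.721 in the same subsets.

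The enterocyte score followed SLC5A1 most closely. Their r was 0.957 (permutation p = 3.0e-05, adjusted 0.00042) and rho 0.811 (permutation p = 0.00238, adjusted 0.0167), with 0.850 without pig H1 and 0.796 without both end pigs. The score correlated with SLC2A2 at 0.861 (permutation p = 0.0004, adjusted 0.0028, rho = 0.769, permutation p = 0.00508, adjusted 0.0213), or 0.740 without pig H1 and 0.783 without the 2 pigs farthest in SLC2A2. For SLC2A5 the same values were 0.811 (permutation p = 0.00711, adjusted 0.0166), 0.431 and 0.346, with a rho of 0.503 (permutation p = 0.0972, adjusted 0.131), so this relation rested on 1 pig. With the score as a term in the fit, high minus low was 0.14 for SLC5A1, 0.34 for SLC2A2 and 0.32 for SLC2A5, positive in place of negative, and none was called.

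Over all 12 pigs SLC2A1 followed SLC5A1 less closely, at r = 0.466 (permutation p = 0.134, adjusted 0.148, rho = 0.413, permutation p = 0.186, adjusted 0.217). That r was 0.185 in males and 0.982 in females (adjusted permutation p = 0.0389, rho = 0.829, adjusted 0.175). With the mean of each group and sex removed it was 0.473 (adjusted permutation p = 0.139, rho = 0.741, adjusted 0.0214). By its brightest probe set, SLC2A3 ran against the enterocyte carriers over 12 pigs. Its r to SLC5A1 was -0.664 (permutation p = 0.0149, adjusted 0.0223, rho = -0.531, permutation p = 0.0809, adjusted 0.121), -0.346 without pig H1 and -0.424 without the 2 farthest pigs. The rho was -0.391 without pig H1 and -0.588 without the 2 farthest pigs, and none of these 4 values had an adjusted permutation p under 0.05. With the mean of each group and sex removed, and pig H1 kept, the r was -0.712 (adjusted permutation p = 0.0103) and the rho -0.699 (adjusted 0.0260). SLC2A1 correlated with SLC5A4 at 0.739 (permutation p = 0.00601, adjusted 0.0158, rho = 0.538, permutation p = 0.0748, adjusted 0.121). That r was 0.743 without pig H1 (adjusted permutation p = 0.0481), 0.648 without the 2 pigs farthest in SLC5A4, 0.170 in males and 0.884 in females. With the enterocyte score SLC2A1 gave 0.50 (permutation p = 0.104, adjusted 0.123, rho = 0.503, permutation p = 0.0995, adjusted 0.131), with 0.242 without its 2 farthest pigs and 0.232 in males. In females it was 0.984 (adjusted permutation p = 0.0292, adjusted 0.0583 by rho). With the mean of each group and sex removed it was 0.513 (adjusted permutation p = 0.112, rho = 0.692, adjusted 0.0260). The difference between the sexes in these correlations was not tested.

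Within the first identifier range of 8 pigs, SLC5A1 correlated with SLC2A2 at 0.944, with SLC2A5 at 0.949, with SLC5A4 at 0.821 and with the enterocyte score at 0.960. Over the 7 pigs of that range without pig H1 these values were 0.829, 0.843, 0.679 and 0.809. The second range has too few pigs for a correlation. The 3 pigs with the highest SLC5A1 values, pig L4 and pigs H4 and H3, also had the 3 lowest scores of the 3 measured B cell markers, at -3.35, -0.52 and -1.58. The other 9 pigs lay between -0.11 and 1.08. High feed efficiency pig 1, lowest in SLC5A1, had a B cell score of 0.42. The part of these cells in the transporter values was not tested.

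**Figure D4:**
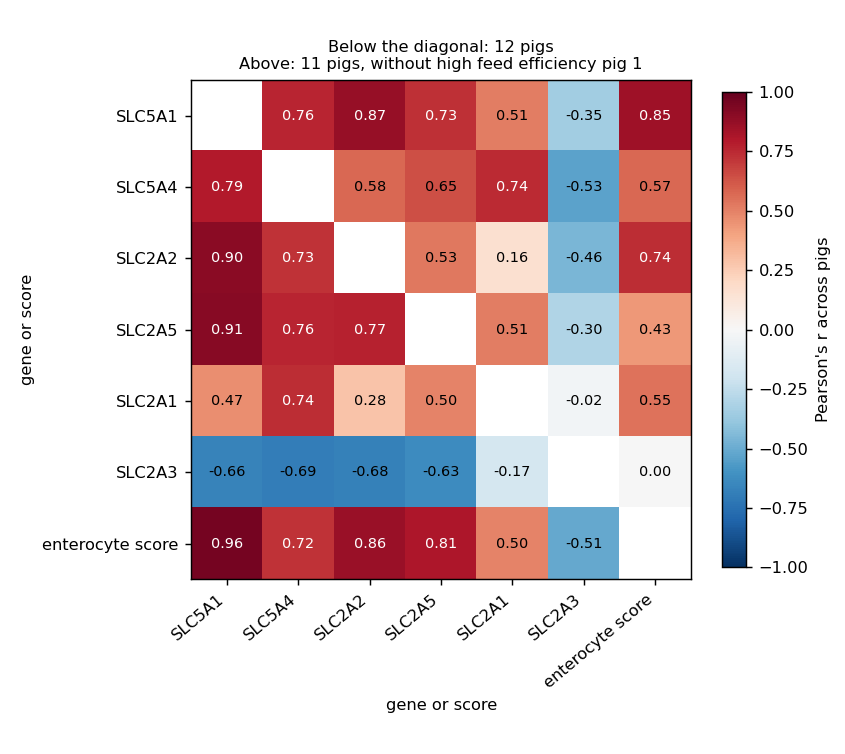
Pearson's r between the transporters and the enterocyte score, with 12 pigs below the diagonal and with 11 pigs, without pig H1, above it. SLC5A1, SLC5A4, SLC2A2 and SLC2A5 form a block of positive values from 0.73 to 0.91 over 12 pigs, SLC2A3 is negative against each of them, and without that pig the SLC2A2 and SLC2A5 pair gives 0.53.

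**Figure D5:**
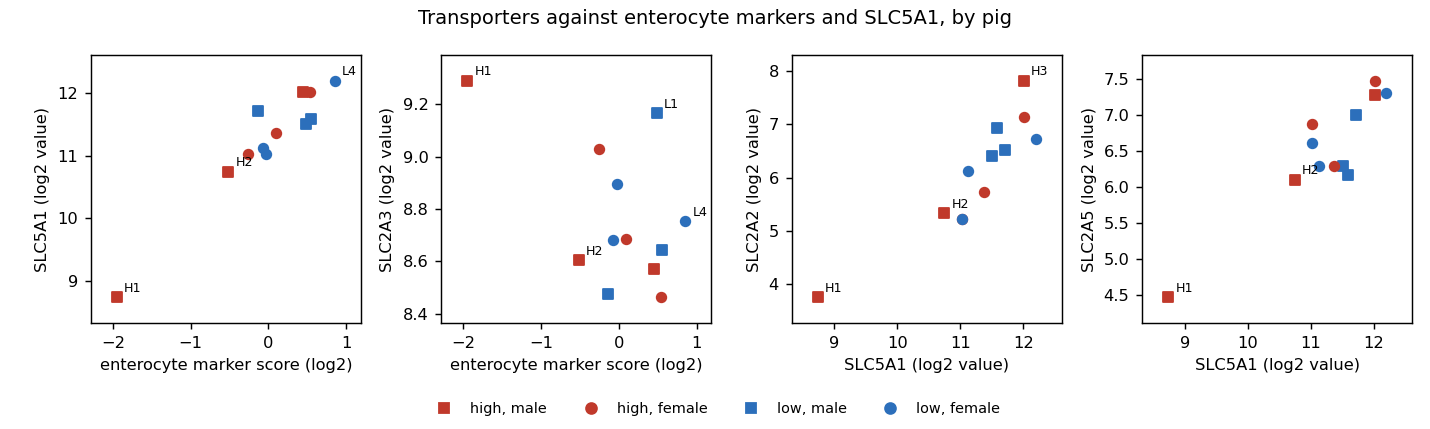
Log2 values of SLC5A1 and SLC2A3 against the enterocyte score, and of SLC2A2 and SLC2A5 against SLC5A1, 1 point per pig (high feed efficiency in red, low in blue, males as squares, females as circles, some pigs named). H1 lies at the end of every panel, and the other 11 pigs keep a slope for SLC5A1 with the score (r = 0.850) and for SLC2A2 with SLC5A1 (0.869) but not for SLC2A3 with the score.

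The genes most like each transporter over the 12 arrays were named by their r alone, among 11730 other genes. For SLC5A1 they were SLC44A3 (0.983), VIL1, which encodes the microvillus protein villin (0.983), and MTTP, which loads lipid onto chylomicrons (0.979), and all 3 stayed above 0.91 without pig H1. For SLC2A2 they were RBM47, an RNA-binding protein (0.979), the sodium-proton exchanger SLC9A2 (0.972) and the adenylate kinase AK3 (0.964). SLC2A5 was most like PDP2 (0.957), the peptide carrier SLC15A1 (0.934) and the amino acid carrier SLC6A19 (0.933), both of the enterocyte brush border, and these values were 0.896, 0.854 and 0.799 without pig H1.

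SLC5A4 was most like ROGDI (0.952), LPAR3 (0.916) and TIAM2 (0.916). SLC2A1 followed CIB2 (0.962), SREBF2, which switches on cholesterol synthesis (0.940), and the lysophosphatidic acid receptor LPAR5 (0.932). SLC2A3 followed CXCL2, a chemokine that draws neutrophils (0.913), the epithelial oxidase NOX1 (0.894) and the ion channel MCOLN3 (0.894). VIL1 is also 1 of the 8 genes of the enterocyte score. The share of all these genes with r above 0.8 was 5.53% for SLC5A1, 2.42% for SLC2A5 and 0.179% for SLC2A3. Without pig H1 it was 2.19%, 0.196% and 0.171%, so that the size of r has to be read against a background that differs between genes.

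Other genes of sugar handling were read from lists, each by counts and a median, and limma called none of their members between the feed efficiency groups. Of 15 further SLC2A and SLC5A genes measured, 9 were higher and 6 lower in high feed efficiency (median 0.03). An unadjusted p under 0.05 was reached by 3 of 15, against 2.18% of all genes. These were SLC2A12 (-0.37 ± 0.15), SLC2A11 (0.27 ± 0.11) and the insulin-responsive glucose carrier SLC2A4 (0.37 ± 0.17), and SLC5A10 followed with -0.24 ± 0.12 (SE, n = 6 per group, limma adjusted p of at least 0.999). Without pig H1, SLC2A12 alone stayed under it, as did 234 of all 12195 genes.

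The brush border enzymes that cut starch and disaccharides had 2 higher and 2 lower of 4 members (median -0.19, 0.04 without pig H1). Maltase-glucoamylase MGAM lay at 6.94 in pig H1 and at 9.74 to 11.17 in the other 11, and differed by -0.60 ± 0.55, or -0.03 without that pig. Sucrase-isomaltase SI differed by -0.45 ± 0.48, lactase LCT by 0.13 ± 0.58 and trehalase TREH by 0.07 ± 0.18 (SE, n = 6 per group), or 0.00, 0.44 and 0.09 without pig H1. As a description without a test, SLC5A1 followed MGAM across the 12 pigs (r = 0.976, 0.909 without pig H1) and SI (0.868 and 0.676), and LCT and TREH less (0.439 and -0.01).

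SLC5A1 depends on the sodium gradient that the sodium pump keeps up. Of 7 genes measured from the list of the pump and its partners, 3 were higher and 4 lower in high feed efficiency (median -0.02). The pump subunit ATP1B1 differed by -0.32 ± 0.37 and ATP1B2 by 0.11 ± 0.27, and the potassium channel genes KCNQ1 by -0.27 ± 0.26 and KCNE3 by -0.21 ± 0.21 (SE, n = 6 per group). Without pig H1 these were -0.02, 0.22, -0.13 and -0.08. ATP1B1 followed SLC5A1 across pigs, again without a test (r = 0.957, 0.925 without pig H1). All 7 had a lower mean in males (median -0.25), where 6789 of all 12195 genes were lower with a median of -0.03, and limma called none of the 7. Without pig H1, 5 of 7 were lower. KCNQ1 (-0.67 ± 0.26) and ATP1B2 (-0.75 ± 0.27) were the 2 of 7 with an unadjusted p under 0.05, against 20.3% of all genes. Without pig H1, ATP1B2 alone was under it, as were 1983 of all 12195 genes. In both genes pigs H4 and L4, the females of the first identifier range, read highest. They read 6.29 and 6.55 for KCNQ1, and 7.23 and 7.44 for ATP1B2. The other females read 5.40 to 5.74 and 6.19 to 6.74, and the highest male 5.78 and 6.54. The part of the identifier range in this was not tested.

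Among 14 genes of sugar sensing and of transporter control, 8 were higher and 6 lower in high feed efficiency (median 0.01). Those of smallest p were ARRDC4 (-0.31 ± 0.26) and TXNIP (-0.26 ± 0.25), both targets of the glucose-responsive factors MLXIPL and MLXIP, the kinase SGK1 (-0.36 ± 0.36) and the intestinal factor CDX2 (-0.25 ± 0.27, SE, n = 6 per group). Without pig H1 these were -0.20, -0.09, 0.00 and -0.09. Of 12 genes of sugar phosphorylation and fructose breakdown, 5 were higher and 7 lower (median -0.12, -0.01 without pig H1). PFKP (-0.20 ± 0.17), PFKM (-0.15 ± 0.15), the glucose 6-phosphate carrier SLC37A4 (-0.28 ± 0.30) and the galactokinase GALK1 (-0.15 ± 0.16) had the smallest p, and without pig H1 they were at -0.09, -0.11, -0.01 and -0.06. Of these 12, 11 had a lower mean in males (median -0.36), and 4 reached an unadjusted p under 0.05, or 10 and 3 without pig H1. Over all 12195 genes 6789 were lower (55.7%, median -0.03) and 2470 reached that p (20.3%), or 6739 and 1983 without pig H1. The second identifier range holds females alone, and its part in these counts was not tested.

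SLC2A1 is a known target of the hypoxia response, and that list had 4 of 11 genes higher and 7 lower in high feed efficiency (median -0.04), with PGK1 at -0.14 ± 0.13, NDRG1 at -0.22 ± 0.22, P4HA1 at -0.12 ± 0.13 and EGLN3 at -0.14 ± 0.16 (SE, n = 6 per group). Without pig H1 these were -0.12, -0.02, -0.03 and -0.04. Male minus female had a median of -0.15 in this list (-0.10 without pig H1). None of its genes was called by limma in either comparison.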

How the data were processed

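RNA of ileal mucosa from 12 pigs was read on 1-colour Affymetrix Snowball arrays. The authors deposited log2 values for 47845 probe sets. Per the submitters' processing notes the software was GCOS 1.1.1. How background was corrected and arrays normalized is not stated in the labels or notes. The 123 control probe sets and the 30% of the others with the lowest mean over 12 arrays (under 2.67) were left out, which kept 33405. Gene symbols came from the platform's annotation.

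Feed efficiency and sex were fitted together with limma 3.58.1 in R 4.3.3, the difference between the sexes in a fit of 4 group means, and p-values adjusted by Benjamini-Hochberg over all probe sets kept at 0.05. The procedure was tested on simulated data. Correlations used 100000 permutations. Members and lists were chosen with earlier results of these data known. From each list the text names up to 4 genes of smallest p for feed efficiency, and for each member the 3 genes of highest r. Alternatives were other filters, array weights, a robust trended variance, quantile normalization or centring on the median, other terms, the mean over probe sets, each sex alone and each pig left out. The number of arrays limits the precision, and replicates are separate pigs.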

Additional observations from a re-analysis of the deposited data

Results flagged for a closer look

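In SLC2A1, pig L4 read 7.51 on SNOWBALL_023347_st, and the next highest of the 6 low feed efficiency pigs read 6.78, a gap wide against the range of that group. It was the only such gap among 34 tests of the 17 probe sets in both groups, and chance flags about 5% of such tests. Without this pig, male minus female for SLC2A1 was -0.32 in place of -0.44, and high minus low was 0.11 in place of -0.01.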

How the results depend on the processing

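No member gene was called in any of the 3 comparisons under any alternative run, and the lowest adjusted p was 0.0725 (SLC2A1 between the sexes, with the identifier range as a term). No paired analysis was possible because each array is a separate pig and the labels give no replicate numbers, only pig identifiers. The cause of the changes below was not tested.

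Signs of high minus low turned with the enterocyte score as a term for SLC5A1 (0.14), SLC2A2 (0.34), SLC2A5 (0.32), SLC2A1 (0.10) and SLC2A3 (-0.12). With the score and without pig H1, an alternative chosen after seeing the data, they were 0.13, 0.34, 0.31, 0.11 and -0.12. In females alone SLC5A1 gave 0.022, SLC2A2 0.0014, SLC2A5 0.15 and SLC2A3 -0.051, and in males alone SLC5A4 gave -0.41. Array weights gave 0.054 for SLC2A1 and -0.037 for SLC2A3, and quantile normalization 0.0024 for SLC2A1. Leaving out 1 pig at a time gave -0.81 to -0.09 for SLC5A1, -0.23 to 0.28 for SLC5A4, -0.92 to -0.02 for SLC2A2, -0.45 to 0.17 for SLC2A5, -0.081 to 0.11 for SLC2A1 and -0.11 to 0.088 for SLC2A3.

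Male minus female turned with the score as a term for SLC5A1 (0.057) and SLC2A3 (-0.046), and to 0.090 and -0.072 also without pig H1. For SLC2A2 it was -0.81 with the identifier range as a term and -0.12 as the mean over probe sets, and for SLC2A3 -0.0054 with array weights and -0.034 as the mean over probe sets. With the range as a term it was -1.06 for SLC5A1, -1.38 for SLC5A4 and -1.17 for SLC2A5. Leaving out 1 pig gave -0.68 to 0.045 for SLC5A1, -0.63 to -0.17 for SLC5A4, -0.85 to -0.22 for SLC2A5, -0.52 to -0.32 for SLC2A1, -0.34 to 0.57 for SLC2A2 and -0.071 to 0.11 for SLC2A3. The difference between the sexes turned for SLC2A1 with quantile normalization (0.027) and as the mean over probe sets (0.077), and for SLC2A3 with array weights (-0.0071) and as the mean over probe sets (-0.075). Leaving out 1 pig gave -1.88 to -0.25 for SLC5A1, -1.42 to -0.41 for SLC5A4, -2.07 to -0.04 for SLC2A2, -0.27 to 0.17 for SLC2A1, -0.12 to 0.31 for SLC2A3 and -1.35 to 0.048 for SLC2A5.

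Over all probe sets, 1 was called for feed efficiency in females alone. Between the sexes 11 were called, 7 with no filter, with quantile normalization or with a trended and robust variance, 6 with the identifier range or the score as a term, 4 with the dimmest 50% left out, and 5 (without pig H4) to 417 (without pig L1) with 1 pig left out. The difference between the sexes had 0, or 1 without pig H3. Of 21 relations, 15 had an adjusted p under 0.05, 15 with the mean of each group and sex removed, 5 without pig H1, 1 without the 2 pigs farthest from the median, 4 in males and 3 in females.

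With 6 pigs a group, 3 a sex within it, and no detection calls among the values used, small differences of the dimmer probe sets are not resolved.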
